A study of Saccharomyces cerevisiae with 4 samples.

Results

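Small nucleolar and small nuclear RNA genes were compared between budding yeast (Saccharomyces cerevisiae) with wild-type Snf1 and yeast with the inhibitor-sensitive Snf1-I132G form. They were taken as all array probe sets with a single platform gene symbol of the SNR series, or LSR1 or NME1. This gave 62 probe sets for 60 genes, out of 9275 probe sets that were not controls. Of these, 42 probe sets stood for 40 C/D box RNAs, 17 for H/ACA box RNAs and 3 for spliceosomal RNAs. The RefSeq gene table of assembly R64 lists 76 snoRNA and 6 snRNA genes, and the members covered 57 and 3 of them. In the platform annotation LSR1 appears only together with GTS1, on 2 probe sets, and LSR1 is also a synonym of GTS1. Those probe sets may therefore not measure the LSR1 RNA. No probe set carries the symbol NME1, so neither LSR1 nor NME1 was analysed here.

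Small nucleolar RNAs pair with ribosomal RNA precursors in the nucleolus. C/D box RNAs carry a methyltransferase to the ribose to be methylated, and H/ACA box RNAs carry a pseudouridine synthase to the uridine to be changed. A few of them are needed instead for cutting the precursor, and the spliceosomal RNAs form the core of the splicing machinery. Their mature forms carry no poly(A) tail, unlike their precursors and read-through transcripts, and the labels do not name the primer used to copy the RNA. A probe set does not separate mature RNA from precursor, so the signals below may hold either.

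Snf1 is the yeast member of the AMP-activated protein kinases and acts when glucose is scarce. Both strains were grown without uracil in 2% glucose, moved to 2% raffinose with 0.05% glucose for 120 min, and given 25 µM of the pyrazolopyrimidine 2NM-PP1 for 40 min, an inhibitor meant to block only the Snf1-I132G kinase. For each strain RNA of 3 transformants was pooled and put on 2 Affymetrix Yeast Genome S98 arrays per strain, so the spread between arrays may be technical. No array without inhibitor was analysed here, so the allele itself and its inhibition cannot be told apart. The labels do not say whether the chromosomal SNF1 gene was deleted. Each difference is the Snf1-I132G mean minus the Snf1 mean on the scale log2(signal + 16).

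SNF1 itself had signals of 797 and 889 in Snf1-I132G and 981 and 1015 in Snf1, which does not test the labels since the change lies in the protein. Of 6956 probe sets bright enough to be tested, 713 were higher and 1219 lower in limma at a threshold of 0.05 on p-values adjusted by Benjamini-Hochberg. Over all of them the median difference was -0.10, a value that other scalings moved to 0.02 (quantile), 0.087 (centred medians) and -0.33 (centred hybridization controls). Rises made up 36.9% of the calls, 47.6% and 54.1% under the first pair of these alternatives, 18.9% under the last and 28.3% with only plain-named probe sets. Arrays with the same number were read as pairs, because their file labels share a string.

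The small RNAs moved upward where they moved. Of the 41 probe sets that were tested, 14 rose and none fell in Snf1-I132G, against a background of 10.3% of all tested probe sets that rose and 17.5% that fell. None was lower at an unadjusted limma p under 0.05 either, and 18 were higher. Of all 6956 tested probe sets, 1801 were lower and 1035 higher by that measure. The 14 rises of members ran from 0.63 (SNR9) to 1.61 (SNR128) on the log2 scale. The median difference of the tested members was 0.59, with 0.46 in pair 1 and 0.71 in pair 2. With the pair as a block 22 rose and none fell, against 19.5% and 28.6% of all. That fit left 1 residual degree of freedom and rests on a pairing that is not certain. Centring on hybridization controls left 7 rises and no fall, against 7.06% and 30.3% of all. The number of rises was 3 without array 2 of Snf1, where 4.84% of all probe sets rose. It was 7 without array 2 of Snf1-I132G, against 7.37% of all, and 8 without array 1 of Snf1, against 4.89%. Besides SNR128, SNR13 and SNR45, each rising member lost its call without at least 1 of the arrays. In such bulk RNA, more cells with an RNA and more of it per cell cannot be told apart.

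The remaining 21 probe sets were too dim to be tested, with signals from 0.275 to 57.1 and a median of 14.8. When all 62 were tested without a filter, 10 rose and none fell, against 6.85% and 11.3% of all probe sets. Counted without any test, both Snf1-I132G arrays lay above both Snf1 arrays for 34 of the 62 and below them for 4, where the shares among all probe sets were 25.7% and 35.3%. The filter kept members whose mean signal reached 35.0. Just inside it were SNR31 at 36.1, SNR39B at 37.3 and SNR36 at 38.7, and just outside were SNR46 at 33.5, SNR42 at 33.1 and SNR56 at 31.5. For 5 tested members, among them the called SNR63, SNR39B and SNR37, both Snf1 signals were under that value, so they passed through their Snf1-I132G signals.

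**Figure D1:**
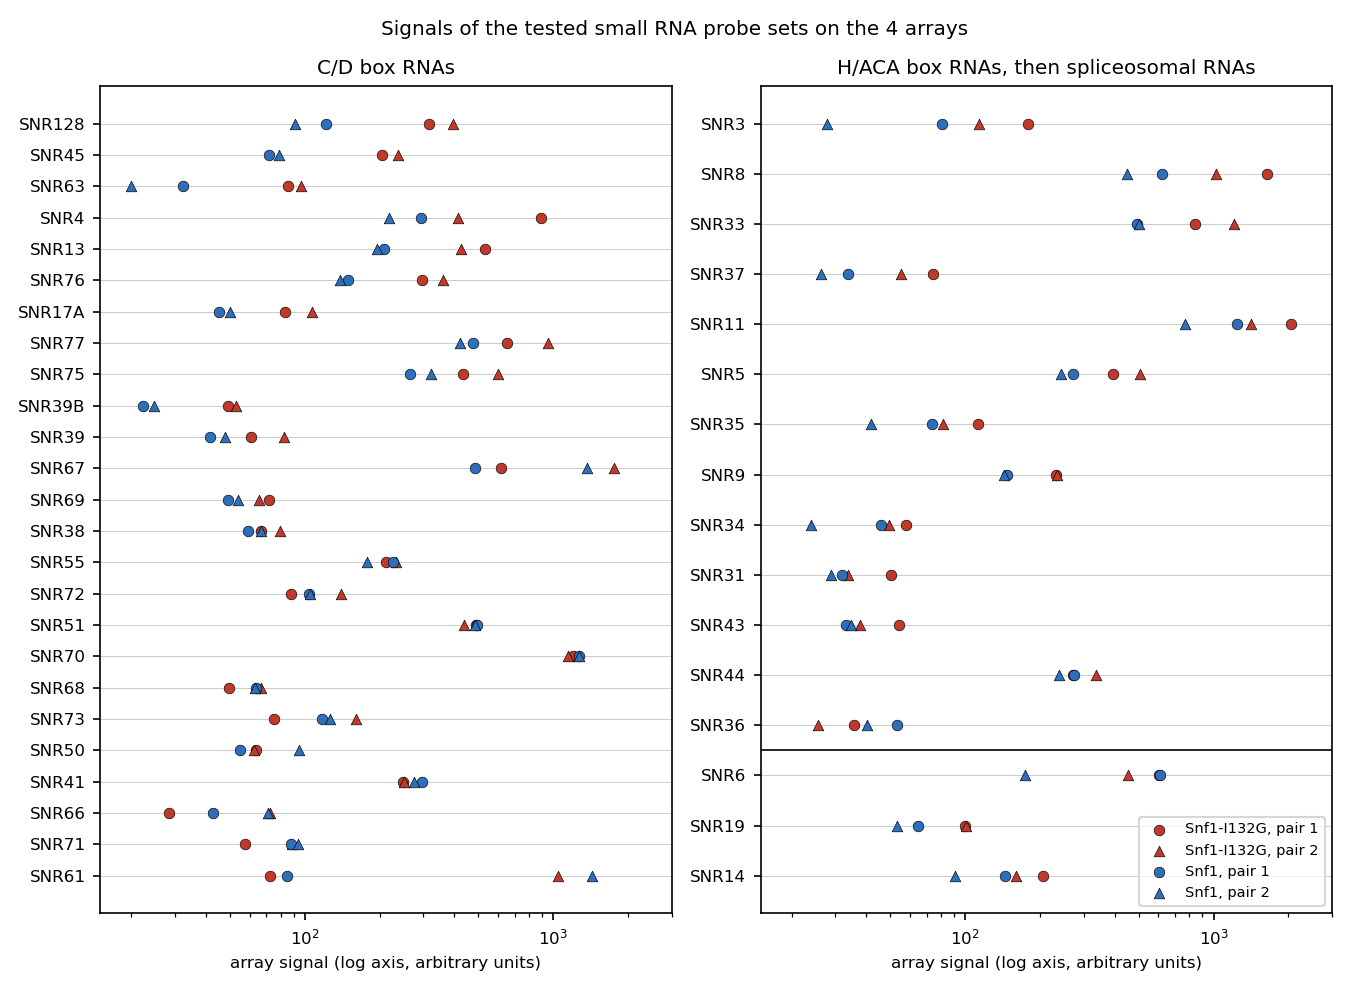
Signal of each tested small RNA probe set on the 4 arrays (log axis, arbitrary units), C/D box RNAs on the left and H/ACA box and spliceosomal RNAs on the right, each sorted by difference. Red is Snf1-I132G and blue Snf1, circles are pair 1 and triangles pair 2. The red points lie right of the blue ones in the upper rows, and SNR61 separates by pair and not by strain.

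Among RNAs needed for cutting the ribosomal RNA precursor, SNR128 had the largest rise of all members. SNR128 encodes the C/D box RNA known as U14, which acts in the early cleavages that free the small subunit rRNA. Its signals were 317 and 395 in Snf1-I132G and 121 and 91.6 in Snf1. The groups were well apart, with a difference of 1.61 ± 0.21 (SE, n = 2 per group, limma, adjusted p = 0.0065), and the call held under all 15 alternatives. SNR17A, a gene for U3, which is needed for the same cleavages, had 82.9 and 107 against 44.9 and 49.8. That rise of 0.80 ± 0.20 (adjusted p = 0.035, limma) was lost with centring on hybridization controls and without a filter. The second U3 gene, SNR17B, is closely similar and was not analysed here, so the probe set may report both.

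The C/D box RNAs SNR45 and SNR4, which guide acetylation of small subunit rRNA, lay close to each other in difference. SNR45 had 205 and 238 in Snf1-I132G and 71.6 and 78.7 in Snf1, a rise of 1.38 ± 0.18 (limma, adjusted p = 0.0065). SNR4 had 896 and 414 against 292 and 219, and its groups did not overlap either. With the wide gap between the Snf1-I132G arrays, 1.22 ± 0.37 missed the threshold (limma, adjusted p = 0.062), though with pairs blocked it passed (0.000704).

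Among methylation guides with a transcript of their own SNR13, SNR63 and SNR39B rose. SNR13, a guide for large subunit rRNA, had 531 and 427 in Snf1-I132G and 209 and 196 in Snf1. Its rise of 1.18 ± 0.18 (limma, adjusted p = 0.0093) held under all 15 alternatives. SNR63, another large subunit guide, rose from signals of 32.3 and 19.9 to 85.6 and 96.6. The size of that rise, 1.36 ± 0.22 (adjusted p = 0.011, limma), depended on the pseudocount, being 1.80 with a pseudocount of 1 and 0.79 with 64. SNR39B rose from 22.3 and 24.7 to 49.2 and 52.9, by 0.76 ± 0.18 (adjusted p = 0.031, limma), on a probe set of a type that can match more than 1 transcript. Its second probe set was too dim to be tested but lay the same way, at 25.7 and 22.9 against 14.5 and 9.29.

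The other tested methylation guides with their own transcript did not pass with or without the block. SNR69 was at 0.32 ± 0.18, with 71.9 and 65.1 in Snf1-I132G above 49.2 and 53.7 in Snf1. SNR68, SNR50, SNR66 and SNR71 were between -0.11 and -0.29, with overlapping groups. SNR71, a large subunit guide, had 57.2 and 88.9 in Snf1-I132G and 88.3 and 94.0 in Snf1, so its groups overlapped. In all, 5 of the 11 tested C/D box probe sets with their own transcript rose and none fell. Each of these 11 has a signal set by its own probes, so levels were not compared between genes.

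**Figure D2:**
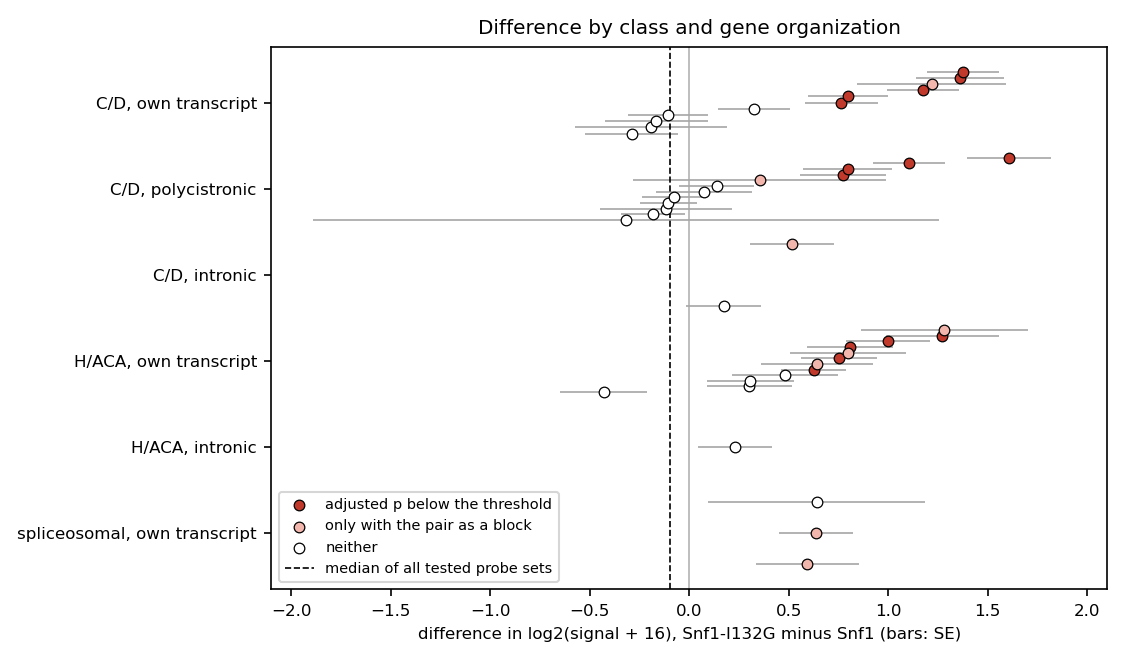
Difference in log2(signal + 16) of each tested member, Snf1-I132G minus Snf1, with its standard error, by RNA class and gene organization. Dark red points passed the threshold, pale ones passed only with the pair as a block, and the dashed line marks the median of all tested probe sets at -0.10. C/D box RNAs run from -0.32 to 1.61, and 12 of 13 H/ACA box RNAs lie above 0.

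Several yeast C/D box RNAs are cut from a shared precursor, and the clusters did not behave alike. Along the 7-gene cluster that runs from SNR78 to SNR72, the second to the fourth RNA rose. SNR76, a large subunit guide, had 297 and 361 against 149 and 138, a rise of 1.10 ± 0.18 (limma, adjusted p = 0.011). SNR77 had 648 and 952 against 474 and 419, and SNR75 had 434 and 600 against 265 and 321. Their rises of 0.80 ± 0.22 and 0.77 ± 0.22 passed narrowly (limma, adjusted p = 0.049 and 0.048) and were lost with centring on hybridization controls, without a filter and in eBayes without a trend. The last members of the cluster overlapped between strains. SNR73 had 75.0 and 160 against 117 and 126, and SNR72 had 87.5 and 139 against 104 and 105, with differences of -0.12 ± 0.33 and 0.07 ± 0.24. SNR78 and SNR74 were too dim to be tested. The difference between the early and the late RNAs of the cluster was noticed in these data and was not tested.

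In the cluster of SNR41, SNR70 and SNR51 no RNA passed. SNR70, a small subunit guide, had 1206 and 1151 in Snf1-I132G and 1266 and 1270 in Snf1. SNR51 had 490 and 436 against 492 and 486, and SNR41 had 248 and 251 against 296 and 275. Their differences were -0.10 ± 0.14, -0.08 ± 0.16 and -0.18 ± 0.16, close to the median of all tested probe sets. Both SNR41 and SNR70 had Snf1-I132G arrays below the Snf1 arrays, but neither passed (limma, adjusted p = 0.43 and 0.61). In the pair of SNR190 and SNR128, SNR190 was at 10.1 and 6.20 against 10.4 and 6.87, too dim to be tested, while SNR128 rose as given above.

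SNR61 and SNR67 separated the pairs and not the strains. SNR61, the last RNA of the cluster that begins with SNR57, had signals of 72.6 in Snf1-I132G and 84.7 in Snf1 in pair 1, and 1047 and 1434 in pair 2. Pair 2 was thus 14.4-fold brighter in Snf1-I132G and 16.9-fold in Snf1, the largest gap between pairs of all 6956 tested probe sets. Within the pairs SNR61 differed by -0.18 and -0.45. Its cluster neighbour SNR55 was steady, with 212 and 233 against 226 and 179. SNR67, the first RNA of another cluster, had 618 and 484 in pair 1 and 1759 and 1362 in pair 2, a gap of 1.47 log2 units that ranked 22 among all probe sets. Its difference was 0.34 in pair 1 and 0.36 in pair 2, or 0.35 ± 0.64, which did not pass unless the pair was a block (limma, adjusted p = 0.70 and 0.043). The cause of these gaps was not tested.

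**Figure D3:**
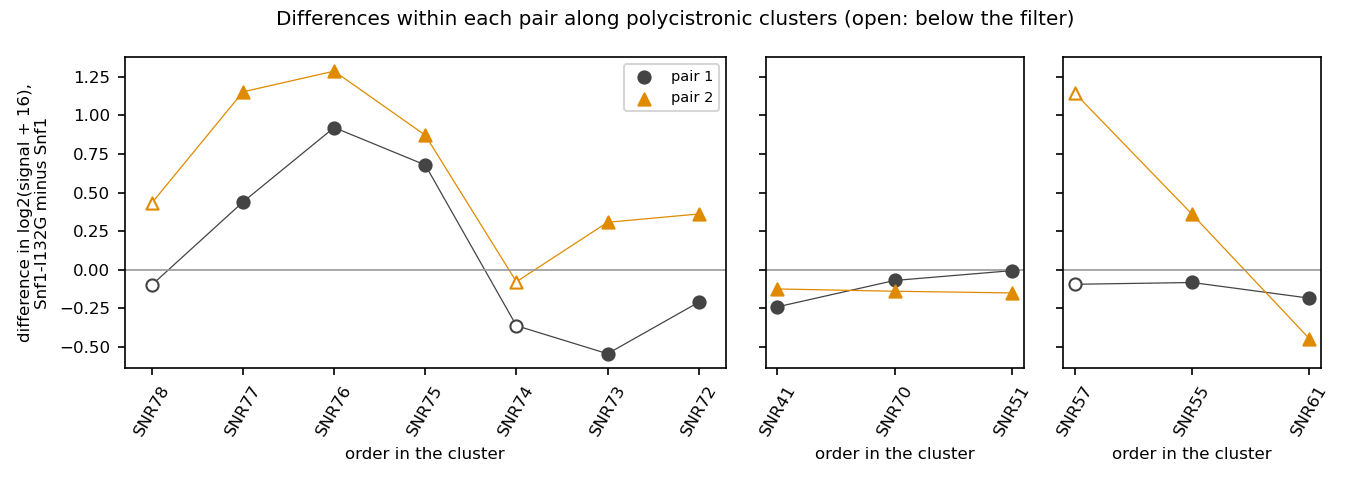
Difference in log2(signal + 16), Snf1-I132G minus Snf1, within pair 1 (grey circles) and pair 2 (orange triangles) along 3 polycistronic clusters in their order of transcription, with open symbols for probe sets too dim to be tested. SNR77, SNR76 and SNR75 lie above 0 in both pairs, and SNR41, SNR70 and SNR51 stay between -0.24 and -0.01.

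RNAs encoded in introns were compared with the genes that host them. SNR38, a large subunit guide in an intron of the elongation factor gene TEF4, had 66.6 and 79.3 in Snf1-I132G and 59.3 and 66.3 in Snf1. Its difference of 0.17 ± 0.19 did not pass, while TEF4 rose by 0.97 ± 0.19 (limma, adjusted p = 0.52 and 0.019). SNR39, in an intron of the ribosomal protein gene RPL7A, had 60.6 and 82.2 against 41.6 and 47.8. Its 0.52 ± 0.21 passed only with pairs blocked (limma, adjusted p = 0.13 and 0.049), and RPL7A rose by 1.01 ± 0.17 (0.011). SNR44, an H/ACA box RNA in the ribosomal protein gene RPS22B, was at 273 and 336 against 274 and 238, or 0.23 ± 0.19, and RPS22B rose by 0.78 ± 0.21 (limma, adjusted p = 0.39 and 0.042). SNR54, in IMD4, was too dim to be tested at 27.4 and 31.1 against 17.2 and 11.0, and IMD4 rose by 0.99 ± 0.20.

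Relative to its host on the same array, each of these 4 RNAs was lower in Snf1-I132G in both pairs on the scale with the pseudocount. For the dim SNR54 this depended on the pseudocount in pair 2. Its signals there were 31.1 in Snf1-I132G and 11.0 in Snf1, against 2996 and 1460 for IMD4. By the plain ratio of these signals SNR54 rose more than its host. In pair 1, with 27.4 and 17.2 against 2285 and 1176, it rose less by that ratio too. The difference of RNA minus host was -0.76 and -0.84 for SNR38 in pairs 1 and 2, -0.45 and -0.53 for SNR39, -0.56 and -0.53 for SNR44 and -0.57 and -0.23 for SNR54. The exact two-sided permutation p over arrays was 0.333 for the first 3, the smallest that 2 arrays against 2 allow, and 0.667 for SNR54. Of 8 listed host genes 5 rose and none fell, against 9.1% and 20.0% of all named genes.

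**Figure D4:**
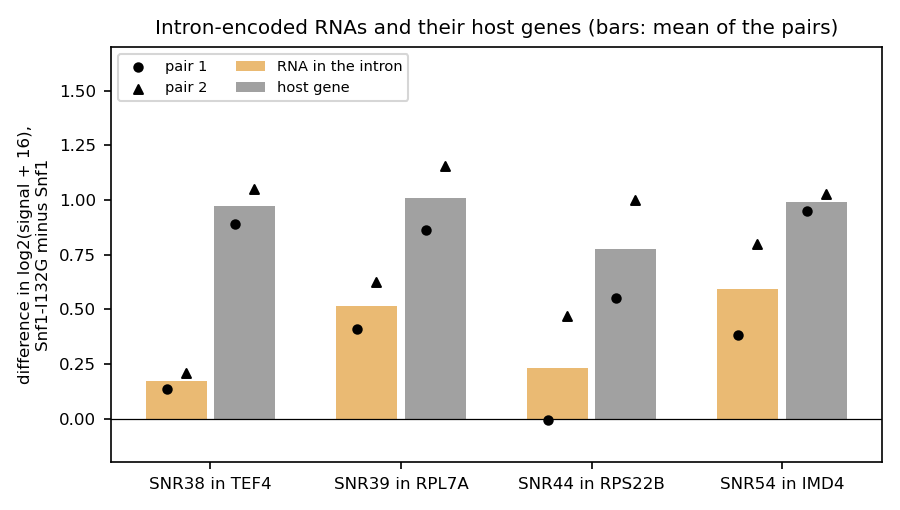
Difference in log2(signal + 16), Snf1-I132G minus Snf1, of 4 intron-encoded RNAs (orange) and their host genes (grey), bars for the mean of the pairs, circles for pair 1 and triangles for pair 2. Each host bar, from 0.78 to 1.01, is taller than the bar of its RNA, from 0.17 to 0.59. SNR54 was too dim to be tested, and the height of its bar depends on the pseudocount.

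H/ACA box RNAs, the pseudouridylation guides, lay above 0 in 12 of 13 tested cases, against 3061 of all 6956 tested probe sets. Of the 13, 5 rose and none fell, against 10.3% and 17.5% of all tested probe sets, and with pairs blocked 8 rose and none fell, against 19.5% and 28.6%. Their median difference was 0.64, with 0.53 in pair 1 and 0.76 in pair 2. The C/D box median was 0.32, with members from -0.32 to 1.61. It ranged from 0.0728 without array 2 of Snf1-I132G to 0.68 without array 1 of it. The difference between the classes was not tested.

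SNR8, a large subunit guide, had 1641 and 1021 in Snf1-I132G and 620 and 447 in Snf1, a rise of 1.27 ± 0.28 (limma, adjusted p = 0.025). SNR33 had 839 and 1211 against 492 and 502 and rose by 1.0 ± 0.21 (adjusted p = 0.022, limma). SNR5 had 393 and 505 against 272 and 244 and rose by 0.75 ± 0.19 (adjusted p = 0.036 in limma). All 3 guide changes in large subunit rRNA. SNR9 was the tightest of the group, with 232 and 235 against 147 and 144. SNR9 rose by 0.63 ± 0.16 and SNR37, from 33.7 and 26.2 to 74.2 and 55.3, by 0.81 ± 0.22 (limma, adjusted p = 0.039 and 0.042). Of these, SNR5, SNR9 and SNR37 were lost with centring on hybridization controls, and SNR9 and SNR37 also without a filter.

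SNR3 and SNR11, also large subunit guides, had groups that did not overlap but arrays that differed within them. SNR3 had 178 and 113 in Snf1-I132G and 80.9 and 27.8 in Snf1, and SNR11 had 2051 and 1421 against 1240 and 766. Their differences of 1.28 ± 0.42 and 0.80 ± 0.29 did not pass (limma, adjusted p = 0.074 and 0.099), yet both passed when pairs were blocked (0.000882 and 0.000888). SNR35, which guides a pseudouridine of small subunit rRNA, behaved alike at 0.64 ± 0.28 (limma, adjusted p = 0.15, or 0.018 with the block). SNR34, SNR31 and SNR43 were between 0.30 and 0.48 and passed neither way. The single H/ACA box RNA below 0 was SNR36, a small subunit guide, at 35.6 and 25.6 against 53.3 and 40.3. At -0.43 ± 0.22 it missed the threshold (limma, adjusted p = 0.20, or 0.096 with the block).

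In the H/ACA class the pairs also differed in level. The median gap of pair 2 minus pair 1 was -0.29 log2 units for tested H/ACA box RNAs, 0.16 for C/D box RNAs and 0.03 for all tested probe sets. A gap of over 1 log2 unit was seen for 3 of the 41 tested members, namely SNR61, SNR67 and SNR6, and for 86 of 6956 probe sets.

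The spliceosomal RNAs were higher on average without passing the threshold. SNR19, the U1 RNA that recognises the start of an intron, had 99.6 and 101 in Snf1-I132G and 64.8 and 53.0 in Snf1. Its difference of 0.64 ± 0.19 fell just short (limma, adjusted p = 0.053, and 0.018 when pairs were blocked). SNR14, the U4 RNA, had 205 and 160 against 144 and 91.0, or 0.59 ± 0.26 (limma, adjusted p = 0.15, or 0.018 with the block). SNR6, the U6 RNA, which is made by RNA polymerase III, had 602 and 452 against 609 and 174. SNR6 overlapped between the strains, at -0.02 in pair 1 and 1.30 in pair 2, and its difference of 0.64 ± 0.55 did not pass either way.

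**Figure D5:**
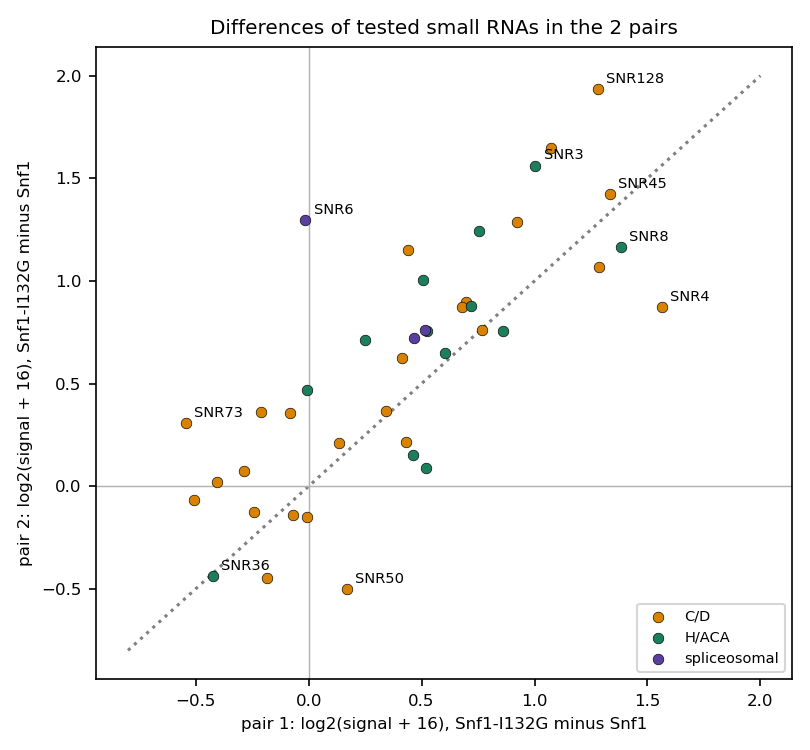
Difference in log2(signal + 16), Snf1-I132G minus Snf1, of the 41 tested members in pair 1 against pair 2, coloured by class, with a dotted line of equality. Of these, 27 lay above 0 in both pairs and 6 below 0 in both, and SNR6 stands apart with a difference in pair 2 alone.

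Across the tested members pair 1 and pair 2 differences had Pearson r = 0.76 and Spearman rho = 0.78 over 41 probe sets, as a description, since the pairs may hold the same RNA pools. The sign was the same in both pairs for 33 of the 41 and opposite for 8. By organization, 10 of 26 tested probe sets with their own transcript rose, 4 of 12 from polycistronic clusters and none of 3 from introns, against 10.3% of all tested probe sets. Longer RNAs tended to differ more, with a Spearman rho of 0.415 between difference and gene length over the 41. The tested H/ACA box RNAs were 182 bases or longer, and tested C/D box RNAs ran from 82 to 490 bases.

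Among the dim members, SNR56, a small subunit guide, stood out. Its signals were 57.1 and 44.8 in Snf1-I132G and 8.22 and 15.7 in Snf1, and it rose when no filter was applied (limma, adjusted p = 0.019). SNR52, which is made by RNA polymerase III, lay the other way at 21.2 and 23.6 against 38.3 and 41.4, and did not pass (limma without a filter, adjusted p = 0.091). The dim signals of SNR62, SNR65 and SNR53 overlapped between the strains.

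Ribosomal RNA and tRNA probe sets were mostly higher in Snf1-I132G. The array has 10 control probe sets for ribosomal RNA, and 9 of them were higher in Snf1-I132G in both pairs, and for 8 the strains did not overlap, as for 25.7% of all probe sets. Their summed signal was 2623 and 3173 in Snf1-I132G against 813 and 1927 in Snf1, with a median difference of 0.99 in pair 1 and 0.52 in pair 2. Of 82 tested tRNA probe sets 63 rose and none fell, against 10.3% and 17.5% of all, with a median difference of 1.48. TLC1, the telomerase RNA gene, differed by 0.69 ± 0.19 and 0.39 ± 0.23 on its 2 probe sets (limma, adjusted p = 0.049 and 0.26). RPR1, the RNase P RNA gene, differed by -0.20 ± 0.43 and did not pass, with 600 and 579 against 1101 and 419. The ratio of 3′ to 5′ signal of the actin control was 1.74 and 1.51 in Snf1-I132G and 1.62 and 1.54 in Snf1. The part of a shift in these RNAs in the rises of the small RNAs was not tested.

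Neighbouring genes in assembly R64 were listed for each member. Read-through from an upstream gene on the same strand would be seen by the same probes if it covered the RNA gene. Of 38 tested members outside introns, 7 lay next to a ribosomal protein gene, and all 7 such neighbours rose, as did 65 of all 81 tested ribosomal protein genes. SNR13, SNR63, SNR17A and SNR39B were the 4 of these members that rose, and SNR4, SNR11 and SNR34 did not pass. Among all 41 tested members 14 rose, and among all tested probe sets 10.3%. SNR13 follows RPL27B on the same strand, which rose by 0.75, and SNR4 follows RPS26B, which rose by 1.37. SNR11 and SNR34 likewise follow RPL36A and RPS29A on the same strand, which rose by 1.23 and 0.99. RPL31A by SNR63 and RPL33B by SNR17A lie on the opposite strand, and RPL7A lies downstream of SNR39B. SNR45, in contrast, is followed by ASN1, an asparagine synthetase gene, which rose by 1.7. Of the 14 tested protein-coding neighbours upstream on the same strand, 4 rose and 4 fell, against 9.1% and 20.0% of all named genes. Their median difference was -0.04. For the 3 rising members among these, 1 neighbour rose and 1 fell, the latter being GSM1 before SNR37, at -1.73. Differences of members and of their upstream same-strand protein-coding neighbours had Pearson r = 0.54 over 14 members, and r = 0.58 over 13 for downstream same-strand neighbours. On the opposite strand it was 0.47 over 7 upstream and -0.056 over 13 downstream. Such neighbours share arrays and scaling, and the part of read-through was not tested.

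Genes for the core proteins of these particles had positive differences in all tested cases. Of 4 core protein genes of C/D box particles 1 rose and none fell, against 9.1% and 20.0% of all named genes. That was NOP58, with 7364 and 7228 in Snf1-I132G and 4579 and 4635 in Snf1, a rise of 0.66 ± 0.15 (limma, adjusted p = 0.025). NOP56, SNU13 and the methyltransferase gene NOP1 were at 0.67, 0.39 and 0.43, and all 3 passed with the pair as a block. Of 3 tested core protein genes of H/ACA box particles 2 rose. The pseudouridine synthase gene CBF5 and NHP2 rose by 0.70 ± 0.18 and 0.69 ± 0.18 (limma, adjusted p = 0.037 for each), and GAR1 at 0.79 ± 0.23 just missed (0.054), and passed with pairs blocked (0.000786). NOP58, CBF5 and NHP2 lost their calls with centring on hybridization controls, and NHP2 also with quantile normalization.

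Assembly factors were less uniform. Of 10 genes 1 rose and none fell, against 9.1% and 20.0% of all named genes. That was TAH1, for a cofactor of the Hsp90-linked assembly complex, at 0.57 ± 0.15 (limma, adjusted p = 0.041). Its call was lost with centring on hybridization controls and without a filter. NAF1, an assembly factor of H/ACA box particles, was at 0.91 ± 0.30 (limma, adjusted p = 0.071, and 0.000385 when pairs were blocked), and SRP40 at 0.80 ± 0.44 (0.23, or 0.000893). PIH1 was at -0.37 ± 0.17 and did not pass. Of 12 genes of the U3 particle and its partners none rose or fell, at a median of 0.31, and with the block UTP18, UTP6 and IMP4 rose. For this and the following lists, 9.1% of all named genes rose and 20.0% fell without the block. With the block 19.5% of all tested probe sets rose and 28.6% fell. None of 11 genes for proteins of RNase MRP and RNase P passed, at a median of 0.36, with RPR2 at -0.72 and POP5 at 0.39. With the block 4 of them rose and 2 fell, the latter being RPR2 and POP6 (limma, adjusted p = 0.011 and 0.034).

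Among genes for spliceosome proteins 1 call was made. None of 14 Sm and Lsm protein genes passed, at a median of -0.09, with SMD2 at 0.68 ± 0.20 and LSM7 at -0.59 ± 0.20. With the block SMD2 rose and LSM7, LSM3, SMB1 and LSM8 fell, where 19.5% of all tested probe sets rose and 28.6% fell. Of 21 genes for proteins of single spliceosomal particles 1 fell and none rose, against 20.0% and 9.1% of all named genes, at a median of 0.04. That was PRP8, the central protein of the U5 particle, with 639 and 670 in Snf1-I132G and 1062 and 1268 in Snf1, a fall of 0.81 on the log2 scale (SE 0.16, limma, adjusted p = 0.019).

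Genes for ending and trimming small RNA transcripts included NRD1 and PCF11, the largest falls in these lists. Of 23 tested genes 3 fell and none rose, against 20.0% and 9.1% of all named genes, so falls were no more common than elsewhere. NRD1, for the RNA-binding protein that ends transcription of snoRNA genes, had 261 and 149 in Snf1-I132G and 549 and 451 in Snf1. Its difference of -1.27 ± 0.28 passed (limma, adjusted p = 0.026), but was -1.08 and lost the call with quantile normalization (0.062) and with median centring (0.050). SEN1, the helicase of the same termination complex, had 322 and 270 against 469 and 530. SEN1 was at -0.73 ± 0.18 (limma, adjusted p = 0.031) and lost the call under the same alternatives (0.081 and 0.076). PCF11, a termination factor gene, had 27.2 and 25.2 against 70.4 and 80.3, at -1.11 ± 0.18 (limma, adjusted p = 0.011). Both its Snf1-I132G signals were under the filter value of 35.0, so it passed the filter through its Snf1 signals. NAB3, the partner of NRD1, was at -0.34 ± 0.16 (limma, adjusted p = 0.17). XRN1, for the main cytoplasmic RNA exonuclease, was at -0.57 and passed only with pairs blocked (limma, adjusted p = 0.069 and 0.0085). AIR1, for a subunit of a polyadenylation complex that feeds RNA to the exosome, was at 1.32 ± 0.45 and passed only with pairs blocked (limma, adjusted p = 0.081 and 0.000255).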

How the data were processed

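The authors deposited 1 linear intensity per probe set and array. MAS5 is the tool named in the submitters' processing notes, without a version. The mean of each array after trimming 2% from each end was 500, so each array had been scaled. Names came from the platform annotation and were matched to R64 by gene ID, which succeeded for all 62 members. The sources used here give no genome build for the array.

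Signals were taken as log2(value + 16), with the 60 control probe sets left out. Probe sets whose mean signal reached the 25th percentile were tested with limma 3.58.1 in R 4.3.3 (lmFit and eBayes with an intensity trend), with 2 residual degrees of freedom and a threshold of 0.05 after Benjamini-Hochberg adjustment over all 6956. A named protein gene was taken at its brightest probe set. The fit was tested on simulated data. RNA classes, clusters, hosts and protein lists were written from general knowledge, and members and lists were chosen with earlier results of these data known. Named were all tested members, hosts, up to 4 genes of each list with the smallest p, and SNF1. NAB3, AIR1, neighbours, other RNAs and some dim members were added after their values were seen. The alternatives were other scalings, pseudocounts of 1 and 64, no filter, a 50th percentile filter, eBayes without trend or robust, plain-named probe sets, the pair as a block and leaving out each array. Same-numbered arrays were treated as pairs, since their deviations from group means correlated at r = 0.513 and their file labels share a string, a reading that is not certain. The number of arrays limits the precision, and p-values measure only the spread between these arrays.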

Additional observations from a re-analysis of the deposited data

How the results depend on the processing

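With 2 arrays per strain, leaving out an array left 1 residual degree of freedom, and the lone array was assumed to vary like the other strain. No member fell under any alternative. The 50th percentile filter left only 19 members to be tested, against 41 in the main result. Of these 19, 9 rose (47.4%), against 13.5% of all probe sets tested with that filter. All 19 had the same call as in the main result, so the lower count there reflects fewer tested members and no lost call. The number of rising members, 14 in the main result, was 7 with centring on hybridization controls, 9 with the 50th percentile filter, 22 with the pair as a replicate block, and 3 to 10 without single arrays. The median difference of all members was 0.78 with median centring, 0.36 with hybridization controls, 0.40 with a pseudocount of 64, 0.37 without a filter and 0.46 to 0.65 without single arrays. For C/D box RNAs it was 0.44 with quantile normalization, 0.51 with median centring, 0.091 with hybridization controls, 0.36 and 0.20 with pseudocounts of 1 and 64, 0.17 without a filter, 0.56 with the stricter filter, 0.25 with plain-named probe sets, 0.34 and 0.36 within pairs 1 and 2, and 0.0728 to 0.68 without single arrays. For H/ACA box RNAs it was 0.80, 0.83 and 0.41 under the 3 scalings in that order, 0.45 with a pseudocount of 64 and 0.46 to 0.83 without single arrays. For spliceosomal RNAs it was 0.41 with hybridization controls and 0.30 to 0.88 without single arrays.

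Changes of sign touched no called gene. With hybridization controls SNR38 was -0.061, SNR55 -0.10, SNR72 -0.16, SNR44 -0.0023 and NOG2 -0.13. With quantile normalization SNR51 was 0.071, SNR68 0.012 and SNR73 0.036. With median centring SNR51 was 0.11, SNR70 0.080, SNR68 0.079, SNR73 0.066, SNR50 0.020, SNR41 0.0022 and EFB1 0.16. Without single arrays the ranges were -0.39 to 1.10 for SNR67, -0.019 to 0.29 for SNR55, -0.22 to 0.37 for SNR72, -0.16 to 0.0026 for SNR51, -0.28 to 0.063 for SNR68, -0.60 to 0.36 for SNR73, -0.49 to 0.15 for SNR50, -0.69 to 0.31 for SNR66, -2.24 to 1.61 for SNR61, -0.22 to 1.5 for SNR6, -0.18 to 1.20 for MPP10, -0.15 to 0.094 for EFB1 and -0.34 to 0.56 for NOG2. The cause was not tested. Low signal kept 21 dim members out of the filtered test, and without a filter 1 of them, SNR56, rose. NME1 gave no value.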

Other observations

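SNR7-L, the long form of the U5 spliceosomal RNA, lies outside the naming rule used above. Its probe set had signals of 257 and 91.2 in Snf1-I132G and 63.5 and 61.1 in Snf1, and 1.13 ± 0.44 missed the threshold (limma, adjusted p = 0.11, and 0.010 when pairs were blocked).

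After SNR61, the next largest gaps between pairs among tested probe sets were those of ZRT1, a zinc transporter gene, at 2.46 and 2.31 log2 units on 2 probe sets. SNR61 was the 1 probe set of 6956 with a gap over 3 log2 units, at 3.72.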
